A study of Homo sapiens with 12 samples.

Results

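The lysosomal genes described here are a list of 46 named genes for soluble lysosomal enzymes, lipid-handling proteins, membrane proteins, subunits of the vacuolar proton pump (V-ATPase) and the transcription factors TFEB and TFE3. They were found by matching the Ensembl identifiers of the count table, which holds 63677 genes, to gene symbols, and 46 of 46 were matched. The list holds 9 proteases, 17 glycosidases and sulfatases, 8 lipid-handling proteins, 10 membrane and V-ATPase proteins and 2 regulators. Of these, 45 passed the filter on low counts and were tested, and only the protease CTSL did not.

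RNA-seq was made from 3 established lines of mantle cell lymphoma (MCL), a B-cell tumour driven by CCND1: JEKO1, JVM2 and MAVER1. Each was left as control or given ironomycin, ibrutinib or the combination for 48 h, for 12 libraries in all. Ironomycin, a derivative of the antibiotic salinomycin that gathers in lysosomes and holds iron there, was given at 50 nM to JEKO1 and at 250 nM to JVM2 and MAVER1. Ibrutinib, a covalent inhibitor of the kinase BTK, was given at 0.5 μM to JEKO1, 1.5 μM to JVM2 and 6.25 μM to MAVER1, and the combination used the same doses. Each line gave 1 library per treatment, so the line is the replicate (n = 3), and the line and the dose cannot be told apart. In the treatment comparisons, differences in level between lines are taken out. Their p-values set a change against the spread of treatment effects between lines, estimated over all 12 libraries.

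Lysosomes degrade proteins, glycans and lipids in an acid lumen. Their enzymes are made in the endoplasmic reticulum, sorted to the lysosome and activated at the low pH that the V-ATPase keeps up, while membrane glycoproteins such as LAMP1 and LAMP2 line the limiting membrane. Many of their genes carry a short element around the letters CACGTG near the start of transcription, the CLEAR element, to which TFEB and TFE3 bind. Both factors are held in the cytoplasm while the kinase mTORC1 phosphorylates them at the lysosome, so their activity depends on their location in the cell, which a count of their transcripts does not measure.

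The libraries held 35448523 to 38630809 counted reads. The B-cell markers (6 genes) summed to 1220 to 2105 CPM (counts scaled to library size and by TMM factors) in every library. The MCL marker CCND1 lay between 216 and 4828 CPM, while SOX11 had 0 reads in every JVM2 library and CD5 at most 0.0549 CPM there, so that JVM2 lacked both of these MCL markers. T-cell markers summed to at most 3.23 CPM and monocyte or macrophage markers, whose cells are rich in lysosomes, to between 0.805 and 8.97 CPM, with CD14, CD163, MARCO and LYZ at or below 14, 12, 8 and 35 reads. CSF1R reached 181 reads (3.68 to 4.88 CPM in JVM2) and ITGAM 136 reads (2.255 to 3.664 CPM in JVM2 and 2.505 to 3.588 in MAVER1). The plasma-cell markers SDC1, PRDM1 and TNFRSF17 were all measured. None passed the test described below for ironomycin against control over the lines, with log2 changes of -0.08, 0.42 and 0.93. Each passed the test, also described below, of whether the ironomycin effect differed between lines. There the adjusted p was 0.0172, 0.0214 and 1.36e-05 (edgeR), and 9.38% of all genes tested passed. Their sum in JEKO1 was 12.4 CPM in the control, 39.4 after ironomycin and 42.9 after the combination. There SDC1 lay between 1.065 and 1.559 CPM, PRDM1 between 1.508 and 4.568, and TNFRSF17 between 6.81 and 37.9. In MAVER1 the sum was 98.4, 181 and 179 CPM, and in JVM2 272, 207 and 187. The part of these changes of the sum in the results below was not tested. In bulk libraries such as these, more transcripts per cell and more cells in a given state cannot be told apart.

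RefSeq promoter windows (GRCh38.p14, from 250 bases before to 50 after each annotated start) were available for 33 of the 46 genes. The letters CACGTG, which read the same on both strands, were present in a window of 9 of them (27.3%): CTSA, CTSD, GAA, NEU1, ARSB, LAMP1, MCOLN1, CLN3 and ATP6V0D1. The share over the windows of all 27305 genes was 8.77%. The longer form TCACGTGA, which contains the core, was present for 6 of the 33 genes (18.2%) and 1.18% of all genes, and the same letters with a further G before and C after them for 2 of the 33 genes (GAA and MCOLN1, 6.06%) and 0.421% of all genes. The stretches upstream of the start are shown for the 4 genes with the core that were higher with both drugs (CTSA, CTSD, GAA and NEU1). Those of the marker LAMP1, with its 5 upstream cores, the channel MCOLN1 and the V-ATPase subunit ATP6V0D1 are also shown. LAMP1, MCOLN1 and ATP6V0D1 did not pass the test with both drugs. Nor did ARSB (log2 change -0.26) and CLN3 (-0.01), which hold the core and are not shown. Whether the core goes with a rise was not tested. The stretches are written 5′ to 3′ on the strand of the gene, with the core in capitals.
CTSA: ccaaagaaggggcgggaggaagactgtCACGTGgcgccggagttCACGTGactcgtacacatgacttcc
CTSD: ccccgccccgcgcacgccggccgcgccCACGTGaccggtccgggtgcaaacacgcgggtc
GAA: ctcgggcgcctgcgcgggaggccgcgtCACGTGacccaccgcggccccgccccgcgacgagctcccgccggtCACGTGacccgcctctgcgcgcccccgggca
NEU1: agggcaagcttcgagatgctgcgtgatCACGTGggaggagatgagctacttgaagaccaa
LAMP1: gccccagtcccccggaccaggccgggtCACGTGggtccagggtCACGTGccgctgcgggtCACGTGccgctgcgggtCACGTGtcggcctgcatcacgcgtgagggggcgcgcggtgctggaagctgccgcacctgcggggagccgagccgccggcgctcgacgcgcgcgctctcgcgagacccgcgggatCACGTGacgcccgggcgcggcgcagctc
MCOLN1: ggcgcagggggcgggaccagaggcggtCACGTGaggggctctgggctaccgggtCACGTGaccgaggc
ATP6V0D1: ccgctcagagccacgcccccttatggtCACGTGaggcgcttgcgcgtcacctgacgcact
The stretches lie at chr20:45891266-45891334 (+) for CTSA, chr11:1763942-1764001 (-) for CTSD, chr17:80101478-80101580 (+) for GAA and chr6:31862915-31862974 (-) for NEU1. Those of LAMP1, MCOLN1 and ATP6V0D1 lie at chr13:113297020-113297238 (+), chr19:7522556-7522623 (+) and chr16:67481184-67481243 (-). A match describes the letters only, and binding was not measured. TPP1, NPC2 and IDUA, described below, had windows without the core, which says only that these letters are not in those windows.

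Levels in the untreated lines came first. Between genes they were compared as CPM per kilobase of annotated exon (GENCODE v29). PSAP, the precursor of the saposins that present sphingolipids to their hydrolases, had the highest median over the 3 control libraries, at 310.5 in JEKO1, 74.3 in JVM2 and 268 in MAVER1. CTSZ, GM2A, CTSH, CTSC and LAMP1 followed with medians of 70.5, 52.1, 31.5, 25.9 and 25.3 CPM per kilobase. GM2A is the activator that lifts the ganglioside GM2 for cleavage, and CTSC (dipeptidyl peptidase 1) activates serine proteases of immune cells. The lowest of the genes tested were HEXA (0.584) and CLN3 (0.227). Exon length is the union over all annotated transcripts (12611 bases for HEXA), which lowers this value for genes with rarely used exons. CTSL, the protease cathepsin L, had 0 to 3 reads in 11 libraries and 23 reads in MAVER1 with ibrutinib. The order of neighbours such as CTSC and LAMP1 was not the same in every line, since LAMP1 was above CTSC in JEKO1 (25.3 against 16.8) and below it in JVM2 (25.6 against 47.5).

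The lines differed in nearly all of these genes. With edgeR's quasi-likelihood F-test and Benjamini-Hochberg adjustment over the 18674 genes tested, 43 of 45 lysosomal genes differed between lines at an adjusted p below 0.05, beside 90.0% of all genes tested, so that the lysosomal share is close to the background. The exceptions were HEXA (adjusted p = 0.051, edgeR) and NPC2 (adjusted p = 0.0817, edgeR). The error in this test is the spread left in the 12 libraries after the terms for line and treatment. The 4 libraries of a line are 1 line under 4 treatments. The SDs given below also hold the treatment changes and are not that error. The highest mean level was in JVM2 for 19 of the 46 genes, in MAVER1 for 19 and in JEKO1 for 8. These means include the treated libraries, and for many genes the highest line overlapped another. PSAP had its highest mean log2 CPM in MAVER1 (10.15, against 10.1 in JEKO1), but its highest control level in JEKO1.

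GAA, the acid glucosidase that degrades glycogen, showed the largest gap, with mean log2 CPM at 6.15 for JEKO1, 1.77 for JVM2 and 6.62 for MAVER1 (SD 0.5, 0.42 and 0.1 over 4 libraries each). Its counts ran from 84 reads upward in JVM2 to 4499 at most in the other lines, and JVM2 did not overlap them. CTSH, an aminopeptidase, was lowest in JEKO1 (4.9 ± 0.35) and higher in JVM2 (7.91 ± 0.13) and MAVER1 (7.06 ± 0.51). CTSZ, a carboxypeptidase, was instead lowest in MAVER1 (4.43 ± 0.35), against 7.41 ± 0.41 in JEKO1 and 6.96 ± 0.26 in JVM2. FUCA1, which removes fucose from glycans, had 6.03 ± 0.19 in JVM2, 4.26 ± 0.21 in JEKO1 and 3.37 ± 0.02 in MAVER1, without overlap between lines. SGSH, the heparan sulfatase, had its lowest mean in JEKO1 (2.64 ± 0.69) and its highest in JVM2 (5.11 ± 0.14).

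Subunits of the proton pump did not share an order of lines. ATP6V1A, the catalytic subunit, was highest in JVM2 (7.41 ± 0.06, against 5.7 ± 0.13 in JEKO1 and 5.01 ± 0.2 in MAVER1). ATP6AP1, an accessory subunit, was highest in MAVER1 (8.05 ± 0.23) and lowest in JEKO1 (5.7 ± 0.3). PSAP and the cysteine protease CTSB were both lowest in JVM2, with means of 7.9 and 4.37 there against 10.15 and 6.4 in MAVER1. CTSC was highest in JVM2 (9.24 ± 0.12). LAMP1 differed least, by 0.19 between JVM2 and MAVER1, and its lines overlapped. TFEB was highest in JEKO1 (6.75 ± 0.12), then JVM2 (6.3 ± 0.09) and MAVER1 (5.64 ± 0.15), while TFE3 was highest in JVM2 (6.27 ± 0.02).

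**Figure D1:**
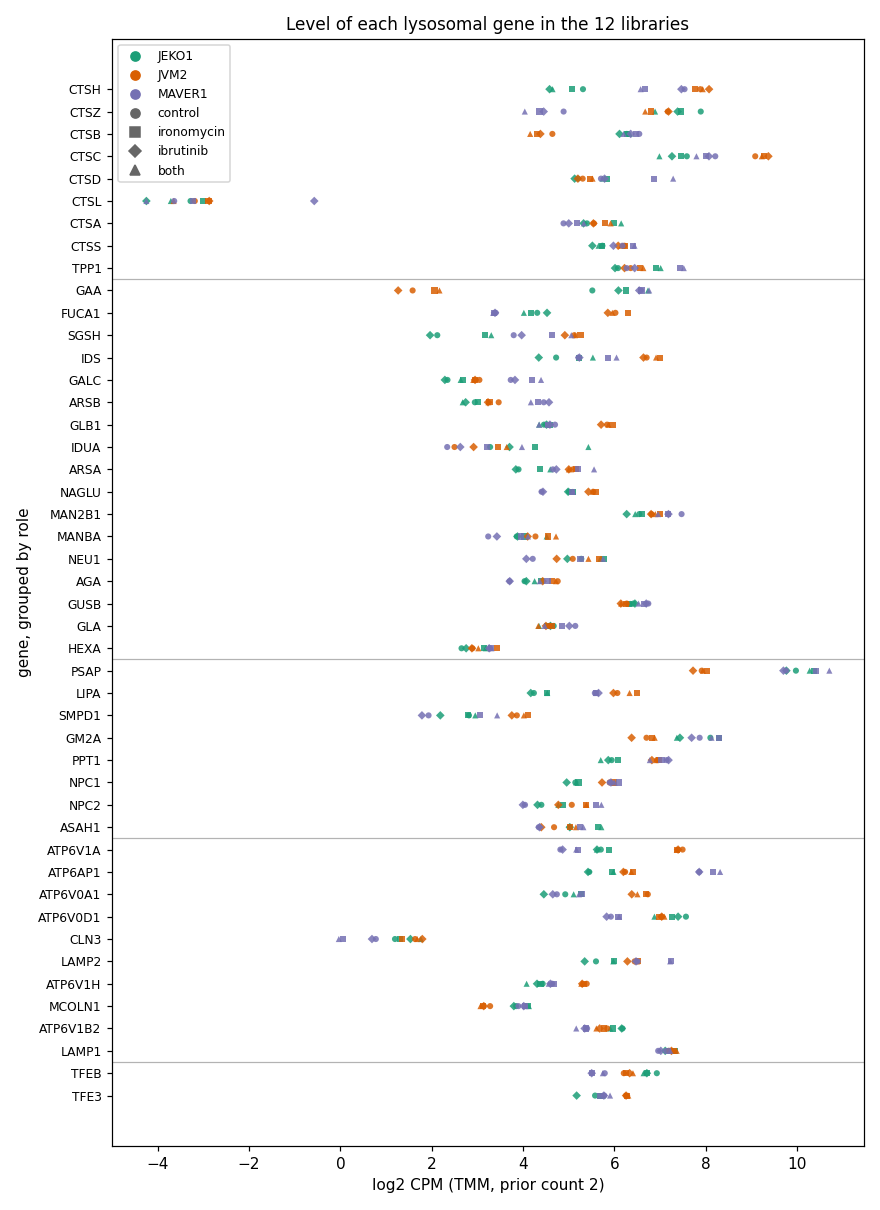
Level of each of the 46 lysosomal genes in the 12 libraries, as log2 CPM (TMM, prior count 2) on the x axis, with the genes grouped by role on the y axis. Each point is 1 library, the colour gives the line and the shape the treatment. GAA lies far lower in JVM2 than in the other lines, CTSZ is lowest in MAVER1, LAMP1 is nearly level over all 12 libraries, and CTSL lies below the other genes.

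Ironomycin alone was compared with control to ask whether the drug moves lysosomal transcripts. ASAH1, acid ceramidase, was the only 1 of 45 lysosomal genes that passed the test (2.22%), beside 0.584% of all genes tested. In JEKO1, ASAH1 went from 32.4 to 49.6 CPM with ironomycin. In JVM2, ASAH1 went from 25.6 to 32.7 CPM, and in MAVER1 from 20.2 to 37.9. It rose in 3 of 3 lines, by 0.62 on the log2 scale (SE 0.11, adjusted p = 0.0394, edgeR). The median log2 change over the 45 genes was 0.23, beside 0.03 over all genes tested, 32 were above 0 and 13 below, and 17 had an unadjusted p below 0.05, beside 4198 of the 18674 genes tested.

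The next 3 genes by p did not pass. IDUA, the iduronidase that degrades dermatan and heparan sulfate, had a log2 change of 0.94 (SE 0.18, adjusted p = 0.0534, edgeR) and was higher in 3 of 3 lines. TPP1, a tripeptidyl peptidase whose loss causes a childhood neuronal ceroid lipofuscinosis, had 0.72 (SE 0.17, adjusted p = 0.0684, edgeR). CTSZ had -0.44 (SE 0.11, adjusted p = 0.0776, edgeR). LAMP1 and LAMP2 had log2 changes of 0.15 and 0.40, and TFEB and TFE3 of -0.15 and 0.02, none of which passed. The TFE3 value turned to -0.03 without JEKO1 and -0.01 without JVM2. Without JEKO1 or without MAVER1, 0 of 45 lysosomal genes passed with ironomycin (beside 0.0168% and 0.0053% of all genes), and without JVM2, 9 passed (beside 9.1%), all with 1 line fewer in the fit. DESeq2 called 13 lysosomal genes, 12 of them higher, beside 12.4% of all genes, and with only the 6 libraries of the comparison in the fit 0 passed, beside 0.0125%. Without the filter on low counts 3 passed (beside 1.4%), and with library totals 2 (beside 1.13%).

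**Figure D2:**
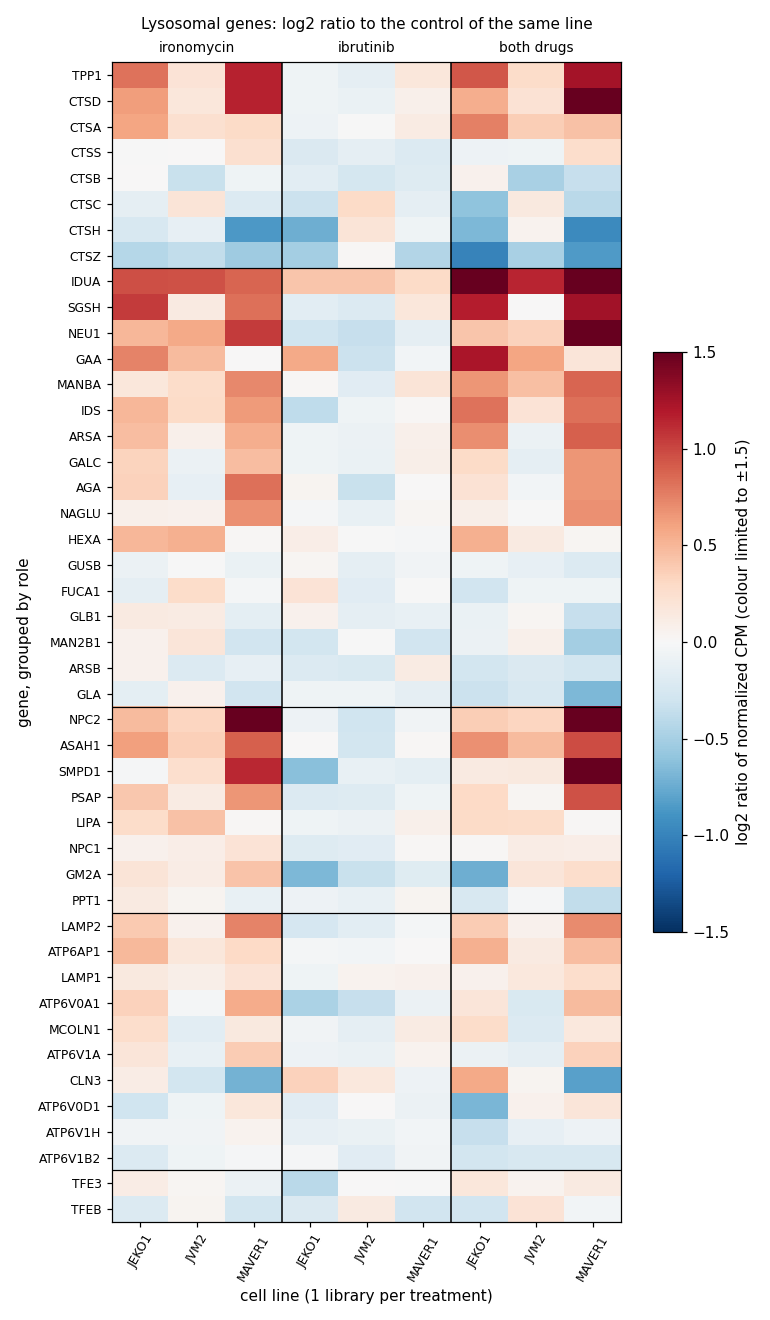
Log2 ratio of normalized CPM in each treated library to the control of the same line, for the 45 lysosomal genes tested (rows, grouped by role) in each line and treatment (columns). Red is higher and blue lower, with colours limited to 1.5 in size, and no test is shown. TPP1, CTSD, NEU1 and NPC2 are deep red in the ironomycin and both-drug columns of MAVER1, the ibrutinib columns are mostly pale, and CTSZ is blue in all ironomycin and both-drug columns.

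Both drugs together were compared with control, with which the ironomycin comparison shares its control libraries. Here 17 of 45 lysosomal genes passed (37.8%), beside 28.2% of all genes tested. Of these, 14 rose (31.1%, beside 14.2% of all genes) and 3 fell (6.67%, beside 14.0%). The median change over the 45 genes was 0.14, beside 0.05 over all genes, with 28 above 0 and 17 below. Scaling by library totals in place of TMM moved the median of all genes from 0.05 to 0.18 and that of the lysosomal genes from 0.14 to 0.265. Under that scaling 17 lysosomal genes passed (beside 29.4%), of which 16 were higher (beside 21.1%) and 1, CTSZ, was lower, and the falls of GLA and ATP6V1B2 given below no longer passed. DESeq2 called 23, of which 16 were higher, beside 33.7% of all genes.

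Among the 8 proteases tested, 3 rose and 1 fell (37.5% and 12.5%, beside 14.2% and 14.0% of all genes). TPP1 in JEKO1 had 67.5 CPM for control, 119 for ironomycin, 64.5 for ibrutinib and 129 for the combination. TPP1 in JVM2 had 81.8, 94.2, 74.5 and 99.2 CPM in the same order, and in MAVER1 77.0, 172, 86.9 and 183. Every library with ironomycin was above both libraries without it in the same line, and the rise with both drugs was 0.82 (SE 0.17, adjusted p = 0.00733, edgeR). Another annotated gene overlaps 11.6% of the exon bases of TPP1 on the same strand, and the part of this overlap in its values was not tested.

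CTSD is the main aspartic protease of the lysosome. In JEKO1, CTSD had 36.7, 57.0, 34.9 and 53.4 CPM as control and under ironomycin, ibrutinib and the combination. In JVM2, CTSD had 39.5, 44.4, 36.7 and 45.9 CPM, and in MAVER1 52.1, 116, 55.0 and 156. The libraries with ironomycin were the higher ones in each line, most in MAVER1 and least in JVM2, and the rise with both drugs was 0.79 (SE 0.22, adjusted p = 0.0234, edgeR). Of the exon bases of CTSD, 41.7% are shared with a readthrough gene on the same strand, so its count is uncertain where reads could be split. CTSA, protective protein for NEU1 and the galactosidase GLB1, rose by 0.52 (SE 0.11, adjusted p = 0.00755, edgeR). Other genes, NEURL2 and PLTP among them, overlap 28.5% of the exon bases of CTSA on the opposite strand, and the part of this overlap in its values was not tested.

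CTSZ moved the other way. In JEKO1, CTSZ had 237 CPM for control, 176 for ironomycin, 167 for ibrutinib and 119 for the combination. In JVM2, CTSZ had 144, 112, 145 and 102 CPM, and in MAVER1 29.5, 20.5, 21.8 and 16.4. The library with both drugs was the lowest of each line, with a change of -0.78 (SE 0.11, adjusted p = 0.0032, edgeR). The cysteine proteases CTSH, CTSC and CTSB had changes of -0.52, -0.29 and -0.25 with unadjusted p below 0.05, but their adjusted p of 0.0979, 0.106 and 0.106 (edgeR) did not pass. CTSS, which processes the invariant chain of MHC class II, had a change of 0.04 (adjusted p = 0.782, edgeR).

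Of the 17 glycosidases and sulfatases, 7 rose and 1 fell (41.2% and 5.88%, beside 14.2% and 14.0% of all genes). IDUA had the largest rise of all lysosomal genes, 1.69 (SE 0.18, adjusted p = 0.00152, edgeR). In JEKO1, IDUA had 9.65 CPM for control, 19.0 for ironomycin, 13.0 for ibrutinib and 43.1 for the combination. In JVM2, IDUA had 5.60, 10.9, 7.50 and 12.4 CPM, and in MAVER1 5.00, 9.18, 6.12 and 15.7. The order control, ibrutinib, ironomycin, both held in each line. The gene SLC26A1 overlaps 13.3% of the exon bases of IDUA on the opposite strand, and its reads moved too, from 229 to 631 in JEKO1, 40 to 89 in JVM2 and 71 to 108 in MAVER1 between control and both drugs. Whether the counting used strand is not stated, and the part of this overlap in the IDUA values was not tested.

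SGSH in JEKO1 had 4.30, 8.95, 3.85 and 9.82 CPM as control and under ironomycin, ibrutinib and the combination. SGSH in JVM2 had 34.7, 38.2, 30.1 and 35.1 CPM, and in MAVER1 13.8, 24.7, 15.6 and 33.2. It rose by 0.81 (SE 0.22, adjusted p = 0.0231, edgeR), with a wide gap between control and combination in JEKO1 and MAVER1 and nearly level values in JVM2. NEU1, the lysosomal sialidase, in JEKO1 had 38.6, 54.5, 31.3 and 51.6 CPM. NEU1 in JVM2 had 33.9, 50.4, 26.6 and 43.1 CPM, and in MAVER1 18.5, 38.2, 16.8 and 53.9. In every line the ibrutinib library was the lowest and the ironomycin libraries were the highest, with a rise for both drugs of 0.78 (SE 0.20, adjusted p = 0.0158, edgeR).

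GAA rose by 0.66 (SE 0.19, adjusted p = 0.0239, edgeR). In JEKO1, GAA had 45.7, 76.3, 68.0 and 107 CPM. In JVM2, GAA had 2.94, 4.12, 2.35 and 4.45 CPM, and in MAVER1 95.8, 96.4, 93.2 and 108. The both-drug library was the highest of each line, by little in MAVER1. The other 3 that rose were MANBA, a mannosidase (0.65), IDS, the iduronate sulfatase (0.62), and ARSA, which desulfates sulfatide (0.51). Genes on the same strand overlap 17.4% of the exon bases of IDS and 9.69% of those of MANBA, with effects that were not tested. GLA, the galactosidase lost in Fabry disease, was the 1 that fell, by 0.41 on the log2 scale (SE 0.10, adjusted p = 0.0151, edgeR), with 25.4, 22.8, 24.2 and 20.3 CPM in JEKO1. In JVM2, GLA had 23.8, 24.9, 22.6 and 20.1 CPM, and in MAVER1 35.3, 28.9, 32.2 and 22.1. The both-drug library was the lowest of each line. The remaining 9 had changes of -0.26 (ARSB) to 0.28 (GALC) and did not pass.

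Of the 8 lipid-handling genes, 2 rose and 0 fell (25.0% and 0%, beside 14.2% and 14.0% of all genes). NPC2, the soluble carrier that hands cholesterol to NPC1, in JEKO1 had 21.1, 29.2, 19.9 and 27.3 CPM. NPC2 in JVM2 had 33.5, 41.7, 27.3 and 41.8 CPM, and in MAVER1 16.4, 48.2, 15.9 and 52.5. Both libraries with ironomycin were above both without it in each line, and the gap was widest in MAVER1. NPC2 rose by 0.78 with both drugs (SE 0.25, adjusted p = 0.0423, edgeR). ASAH1 rose by 0.71 (SE 0.11, adjusted p = 0.00341, edgeR), to 52.4 CPM in JEKO1, 35.6 in JVM2 and 39.9 in MAVER1. The membrane partner NPC1 had 0.08, LIPA, the acid lipase, 0.19, PSAP 0.43 and SMPD1, acid sphingomyelinase, 0.58, and none of these passed (adjusted p = 0.475, 0.204, 0.0558 and 0.114, edgeR). PPT1 and GM2A had -0.20 and -0.08.

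Of the 10 membrane and V-ATPase genes, 2 rose and 1 fell. These shares of 20.0% and 10.0% are near the 14.2% and 14.0% of all genes. LAMP2, which with LAMP1 covers the inner face of the membrane, in JEKO1 had 48.3, 63.3, 40.7 and 62.9 CPM. LAMP2 in JVM2 had 86.9, 91.3, 77.9 and 90.4 CPM, and in MAVER1 90.9, 152, 88.8 and 149. The rise with both drugs was 0.38 (SE 0.13, adjusted p = 0.0467, edgeR), with the lines far apart in size. LAMP1 in JEKO1 had 145, 161, 138 and 152 CPM, in JVM2 147, 157, 152 and 165, and in MAVER1 124, 143, 129 and 149. Its change of 0.16 (SE 0.07, adjusted p = 0.114, edgeR) did not pass, although the libraries with ironomycin were the higher ones in each line. ATP6AP1 rose by 0.38 (SE 0.09, adjusted p = 0.0153, edgeR). ATP6V1B2, a subunit of the ATP-hydrolysing part of the pump, fell by 0.25 on the log2 scale (SE 0.08, adjusted p = 0.0382, edgeR), with 72.2 and 59.9 CPM in JEKO1, 57.3 and 48.6 in JVM2 and 42.2 and 35.8 in MAVER1 as control and with both drugs. The other 4 V-ATPase subunits of the list had changes of -0.18 (ATP6V1H) to 0.14 (ATP6V0A1). MCOLN1, the lysosomal calcium and iron channel, had 0.08, and CLN3 had -0.01.

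The 2 regulators did not pass. TFEB in JEKO1 had 122, 106, 105 and 99.6 CPM as control and under ironomycin, ibrutinib and the combination. TFEB in JVM2 had 73.7, 75.8, 80.5 and 84.7 CPM, and in MAVER1 55.2, 45.6, 45.3 and 53.6. The control was the highest of JEKO1 and the lowest of JVM2, and the change with both drugs was -0.05 (SE 0.10, adjusted p = 0.764, edgeR), turning to 0.08 with library totals and 0.07 without JEKO1. TFE3 had 47.6, 51.4, 36.0 and 53.6 CPM in JEKO1. In JVM2, TFE3 had 76.2, 77.7, 76.3 and 79.0 CPM, and in MAVER1 54.8, 51.4, 54.5 and 59.8. The both-drug library was the highest of each line, with a change of 0.12 (SE 0.11, adjusted p = 0.453, edgeR).

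The count of 17 rests on JEKO1 and MAVER1. Without JEKO1, 0 of 45 lysosomal genes passed, beside 0.207% of all genes tested, and without MAVER1 also 0, beside 0.117%. Without JVM2, 21 passed, beside 33.9%. With only the 6 libraries of the comparison in the fit, 0 passed, beside 0.031% of all genes.

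**Figure D3:**
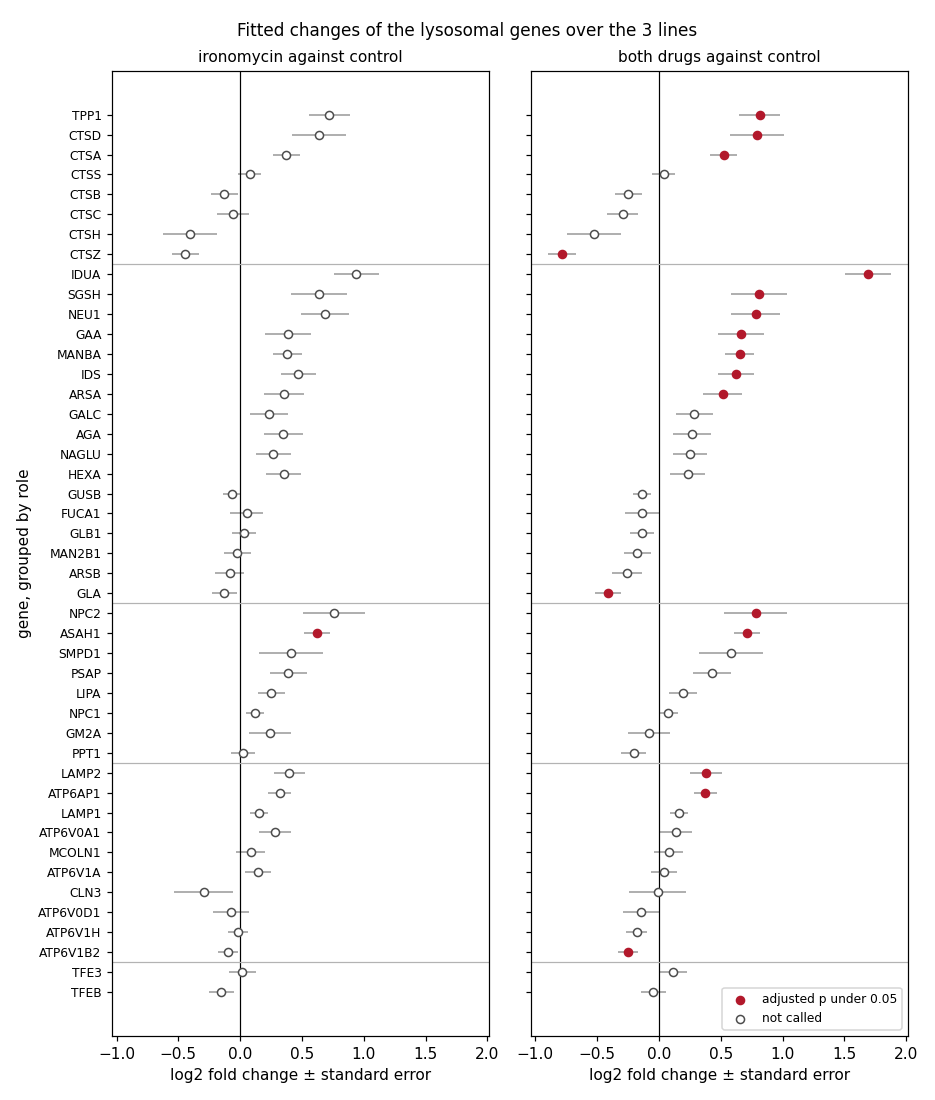
Fitted log2 fold change (x axis) of the 45 lysosomal genes (y axis, grouped by role) for ironomycin and for both drugs against control, over the 3 lines. Bars are 1 standard error on each side and filled points passed the test at an adjusted p below 0.05. ASAH1 alone is filled on the left, 17 genes are filled on the right, IDUA lies at 1.69, and TFEB and TFE3 lie near 0 in both panels.

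**Figure D4:**
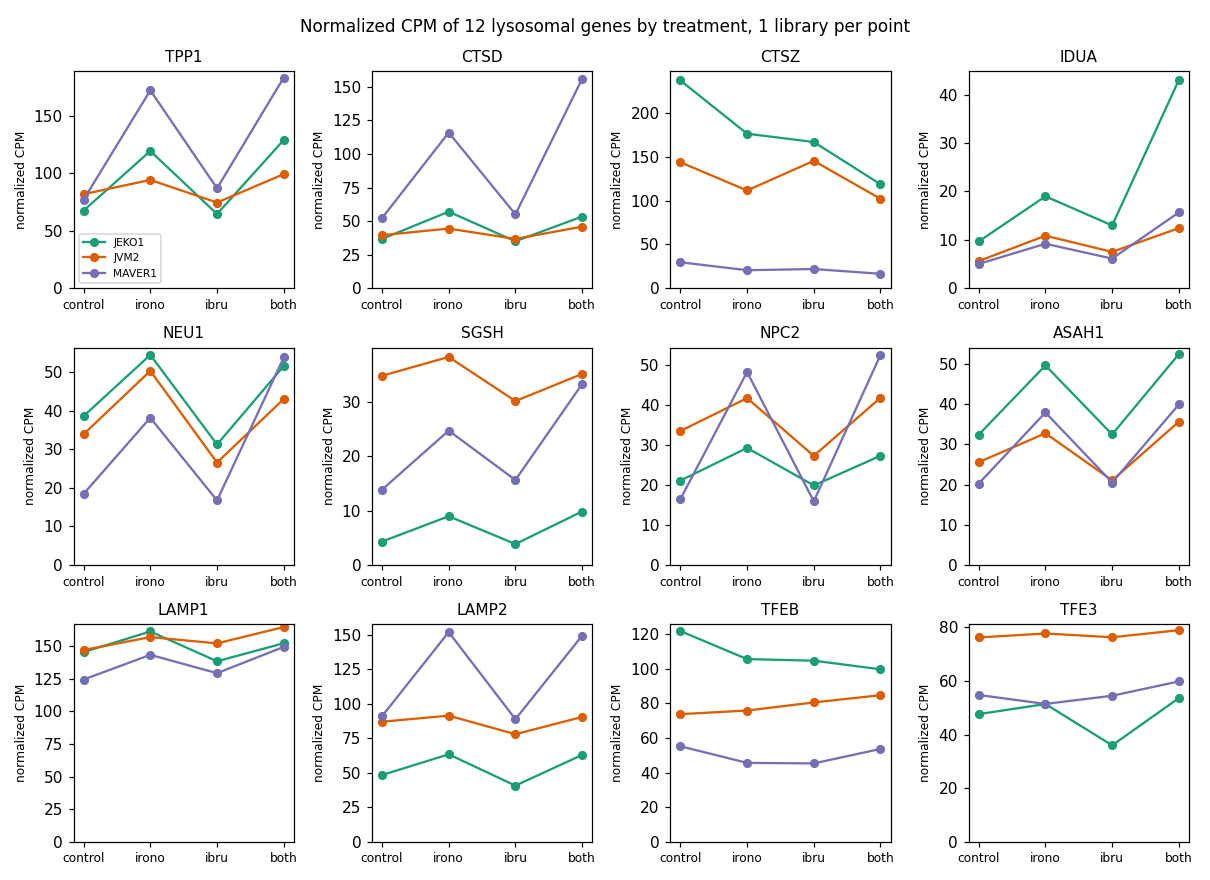
Normalized CPM (y axis, from 0) of 12 lysosomal genes under control, ironomycin (irono), ibrutinib (ibru) and both drugs (x axis), with 1 point per library and a line for each cell line. TPP1, CTSD, NPC2 and LAMP2 zigzag upward with ironomycin, most in MAVER1, CTSZ is lowest with both drugs in each line, TFE3 is highest with both drugs in each line, and the order of treatments for TFEB differs between lines.

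Both drugs were also compared with ibrutinib, which shows what ironomycin added to it. Here 18 of 45 lysosomal genes passed (40.0%), beside 23.3% of all genes tested, with 16 higher (35.6%, beside 11.8%) and 2 lower (4.44%, beside 11.5%). The median was 0.22, beside 0.05 over all genes. The largest rises were those of IDUA (1.31), NEU1 (1.06), NPC2 (0.94), SMPD1 (0.89), SGSH (0.88), CTSD (0.84), TPP1 (0.84) and ASAH1 (0.80), with adjusted p of 0.00406 to 0.0332 (edgeR). SMPD1 in JEKO1 had 4.50 CPM with ibrutinib and 7.69 with both, in JVM2 13.4 and 16.1, and in MAVER1 3.39 and 10.7. CTSZ and GLA were the 2 that fell, by 0.48 and 0.32 on the log2 scale (adjusted p = 0.0151 and 0.0462, edgeR). PSAP rose by 0.59 and ATP6V0A1, a membrane subunit of the pump, by 0.45. Without JEKO1 or without MAVER1, 0 lysosomal genes passed (beside 0.00559% and 0.0318% of all genes), and without JVM2, 18 (beside 28.9%). With only the libraries compared 3 passed (beside 1.89%), and DESeq2 called 21 (beside 29.7%).

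There are 6 pairs of libraries that differ in ironomycin alone, 3 without ibrutinib and 3 with it. The pairs share no library, but they come from the same 3 lines, so they are not 6 independent replicates. In 18 of 45 lysosomal genes (40.0%) the library with ironomycin was higher in 6 of 6 pairs, beside 14.8% of all genes tested, and in 2 genes, CTSZ and ATP6V1B2, it was lower in 6 of 6, beside 15.5%. IDUA was higher by 0.72 to 1.73 on the log2 scale over its 6 pairs, TPP1 by 0.20 to 1.16 and LAMP1 by 0.09 to 0.21. CTSZ was lower in its pairs by a narrow range, from -0.53 to -0.37.

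Ibrutinib alone was compared with control, and 0 of 45 lysosomal genes passed, beside 0% of all genes tested (edgeR). At an unadjusted p below 0.05 there were 3 lysosomal genes and 680 genes in all, and DESeq2 called 0 lysosomal genes, beside 0.145% of all genes. The median was -0.08, beside 0.00 over all genes, and 37 of 45 values were below 0. The 4 lowest p were those of CTSZ (-0.31), GM2A (-0.40), ATP6V0A1 (-0.31) and IDUA (0.38), each with an adjusted p of 1.0 (edgeR). GM2A was lower in 3 of 3 lines, from 275 to 173 CPM in JEKO1, 104 to 83.0 in JVM2 and 233 to 207 in MAVER1.

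Both drugs were compared with ironomycin to see what ibrutinib added. The edgeR test called 0 of 45 lysosomal genes, beside 0% of all genes tested, with 5 and 1970 at an unadjusted p below 0.05, and DESeq2 called 1, IDUA, beside 0.889% of all genes. The median was -0.02, beside 0.01. IDUA had 0.75 (SE 0.18, adjusted p = 0.367, edgeR) and was higher in 3 of 3 lines, by 1.18 on the log2 scale for JEKO1, 0.19 for JVM2 and 0.77 for MAVER1. CTSZ (-0.34), GLA (-0.29) and MANBA (0.27) followed, with adjusted p of 0.431, 0.431 and 0.459 (edgeR). For deviation of the combined effect from additivity on the log2 scale, edgeR called 0 of 45 lysosomal genes, beside 0% of all genes, with 0 and 367 at an unadjusted p below 0.05, and DESeq2 called 0.

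The ironomycin effect differed between lines for 10 of 45 lysosomal genes (22.2%), beside 9.38% of all genes tested (edgeR, 2 coefficients). They were NPC2 (adjusted p = 0.00108), TPP1 (0.00635), CTSD (0.00653), NAGLU (0.0150), LAMP2 (0.0172), SGSH (0.0193), SMPD1 (0.0198), PSAP (0.0436), NEU1 (0.0491) and ATP6V0A1 (0.0499). Over the pairs with and without ibrutinib, the mean effect was the largest in MAVER1 for 9 of the 10, and in JEKO1 for SGSH. It was the smallest in JVM2 for 8 and in JEKO1 for 2, NPC2 and NEU1, where the JEKO1 and JVM2 values were nearly equal.

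For NPC2 the mean log2 effect was 0.46 (JEKO1), 0.47 (JVM2) and 1.64 (MAVER1). CTSD had 0.62, 0.24 and 1.32 in the same order. SGSH had 1.20, 0.18 and 0.96. NAGLU, which acts with SGSH on heparan sulfate, had 0.10, 0.08 and 0.67, so that its shift was seen in MAVER1. SMPD1 had 0.38, 0.26 and 1.39, with an uneven pair of values in JEKO1, -0.02 without ibrutinib and 0.77 with it. JVM2 and MAVER1 had the same ironomycin dose, JEKO1 a lower one, and ibrutinib doses differed in all 3. The plasma-cell markers SDC1, PRDM1 and TNFRSF17 also passed this test of a difference between lines (adjusted p above). Their sum was higher with ironomycin in JEKO1 and MAVER1 and lower in JVM2 (values above). Their part in the differences of the lysosomal genes was not tested. The count of lysosomal genes moved to 16 without JEKO1 (beside 10.6% of all genes), 3 without JVM2 (beside 3.58%) and 1 without MAVER1 (beside 1.38%).

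**Figure D5:**
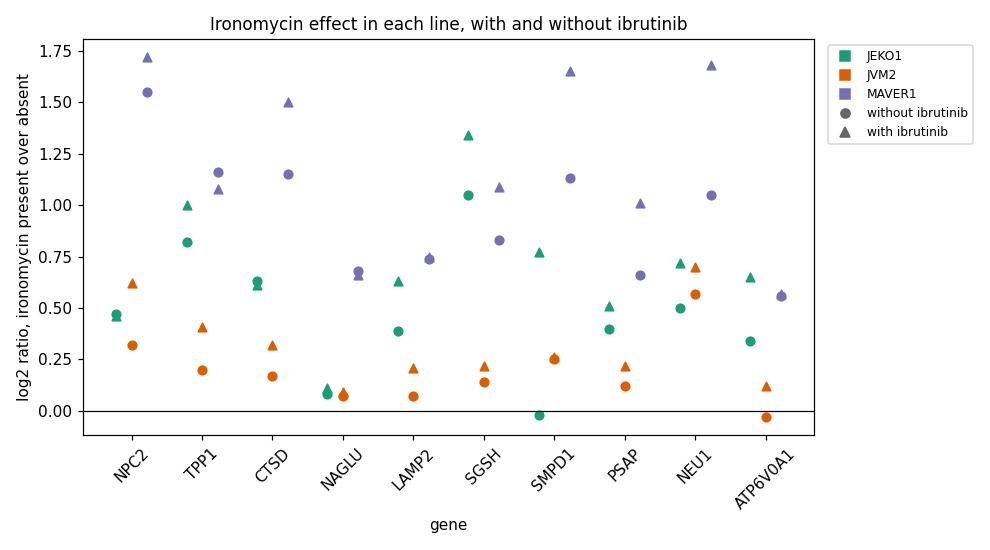
Log2 ratio of the library with ironomycin to the library without it (y axis) for the 10 lysosomal genes whose ironomycin effect differed between lines (x axis). Circles are pairs without ibrutinib and triangles pairs with it, with 1 point per pair, and the colour gives the line. MAVER1 has the highest mean for 9 of the 10 genes and JEKO1 for SGSH, and JVM2 has the lowest mean for 8.

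Other genes of the pathway, from a list of 126 of which 125 were matched and 121 tested, were counted in the same fit for both drugs against control. Of the 121, 26 rose and 17 fell, 21.5% and 14.0%, beside 14.2% and 14.0% of all genes. Among 30 other hydrolases 7 rose and 2 fell (23.3% and 6.67%). HGSNAT, the acetyltransferase of heparan sulfate breakdown, rose by 0.81, the arylsulfatase ARSG by 0.81 and the collagen-degrading cathepsin CTSK by 0.79. The hyaluronidase HYAL2 fell by 0.58 on the log2 scale. Among 27 other membrane proteins 6 rose and 1 fell (22.2% and 3.70%). The rises were led by the lysophospholipid carrier SPNS1 (0.98), the chloride exchanger CLCN7 (0.96) and the cystine carrier CTNS (0.83). The peptide transporter ABCB9 fell (-1.04).

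Of 13 other V-ATPase subunits 2 rose and 4 fell (15.4% and 30.8%, beside 14.2% and 14.0% of all genes). ATP6V1G2 (0.65) and ATP6V0A2 (0.29) rose, and among those that fell were ATP6V1F (-0.50), ATP6V1E1 (-0.31) and ATP6V0B (-0.31). Of 20 genes of enzyme sorting 2 rose and 2 fell, 10.0% each way, which is below the share of all genes. CLN8, which carries new enzymes out of the endoplasmic reticulum, had 0.70 and IGF2R, the receptor for mannose 6-phosphate, 0.61, while the adaptor subunits AP1B1 and AP1S1 had -0.68 and -0.47.

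The list of the TFEB family and its mTORC1 control, 15 genes tested, had 5 that rose and 5 that fell. These are 33.3% each way, beside 14.2% and 14.0% of all genes. The folliculin complex rose in 3 members: FNIP2 by 1.18 (adjusted p = 0.00334, edgeR), FNIP1 by 0.95 and FLCN by 0.74. FNIP2 also rose with ironomycin alone, by 0.99 (adjusted p = 0.0418, edgeR), the only 1 of the 121 genes to pass there. TFEC, a relative of TFEB, fell by 0.92 on the log2 scale, and the Ragulator subunits LAMTOR2 and LAMTOR5 had -0.48 and -0.39. Of 16 genes of the response to lysosomal damage, 4 rose and 3 fell (25.0% and 18.8%). LGALS8, a lectin that marks broken lysosomes, had 0.57, SQSTM1, an autophagy receptor, 0.53 and the lipid carrier ATG2B 0.53. The lectin LGALS9 and the ESCRT-III subunits CHMP4B and CHMP2A had -0.47, -0.39 and -0.37.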

How the data were processed

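RNA-seq of 12 libraries was used, 3 MCL lines under 4 treatments for 48 h. The authors deposited raw read counts per Ensembl gene, with no normalization. The submitters' processing notes name STAR, DESeq2 and GRCh37, while the counter and its use of strand are not given in the sources used here. Columns not used numbered 0. The 63677 identifiers were matched to a table of symbols, 52181 of them with success.

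Counts were tested in edgeR 4.0.16 (R 4.3.3) by the quasi-likelihood F-test with TMM, filterByExpr and Benjamini-Hochberg adjustment over 18674 genes, with treatment and cell line as terms. Genes were called at an adjusted p below 0.05 without a fold minimum. Standard errors are the log2 fold change over the square root of F. The difference of the ironomycin effect between lines was a test of 2 coefficients in a model with both drugs, their interaction and line by ironomycin. The line was a block because libraries of a line come from the same line. Deviations from treatment means correlated at 0.926 to 0.976 within lines (18 pairs) and at -0.705 to -0.127 between lines (48 pairs). Each treatment mean is over 3 lines, and subtracting it pulls the values between lines below 0. The sign of those values therefore says nothing about the block. Levels are TMM-scaled CPM, with a prior count of 2 on the log2 scale. Lengths and overlaps came from GENCODE v29, and promoter sequences from RefSeq GRCh38.p14. Python 3.11.15 with pandas 2.3.3 and matplotlib 3.10.9 made the tables and figures.

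The lysosomal genes and all lists were chosen with earlier results of these data known. Genes were named by a rule: LAMP1, LAMP2, TFEB and TFE3 always, up to 8 called genes with the largest rise and up to 8 with the largest fall per treatment comparison, or the 4 lowest p where fewer than 4 were called, up to 10 called genes between lines for the ironomycin effect, the 10 largest gaps in level between lines, genes with under 10 reads in a library, and up to 3 called genes each way per other list. Of the genes this rule names, 1 is not reported here. Other values accompany these as ranges or to account for every gene. On simulated data for both drugs against control (18431 genes), edgeR recovered 77 of 100 genes changed by 1 and 94 of 100 changed by 2 on the log2 scale, with 24 unchanged genes called. For the difference between lines (18422 genes) it recovered 32 and 75 of 100, with 12 unchanged genes called. The changed genes were drawn from well-counted genes. For both drugs they changed alike in every line, and for the difference between lines each changed in a single line. No other treatment effect was simulated, so these counts are not recovery rates for the real libraries. Alternatives were DESeq2 1.42.0, other scalings and filters, fits without the block, with only the libraries compared, with a fold minimum, and without each line.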

Additional observations from a re-analysis of the deposited data

Results flagged for a closer look

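For 10 lysosomal genes the response to ironomycin was unequal over the 3 lines, by an edgeR test of the difference itself over 2 coefficients, with adjustment over all genes tested. The adjusted p was 0.00108 for NPC2, 0.00635 for TPP1, 0.00653 for CTSD, 0.0150 for NAGLU, 0.0172 for LAMP2, 0.0193 for SGSH, 0.0198 for SMPD1, 0.0436 for PSAP, 0.0491 for NEU1 and 0.0499 for ATP6V0A1 (edgeR). The pairs of a line with and without ibrutinib served as its replicates, so the test may measure technical spread only, and doses differed between lines.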

How the results depend on the processing

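Each line gave 1 library per treatment, and library depths were alike, so each call rests on 3 lines, and CTSL was the only lysosomal gene too low in reads to be tested. The cell line pairs the libraries, and with no replicate block 0 lysosomal genes were called with ironomycin, with both drugs against control and with both drugs against ibrutinib, beside 0% of all genes in each, and the ironomycin median was 0.174 (main 0.233). With only the libraries compared, 0, 0 and 3 were called in these comparisons, where fewer samples estimate the spread. With a log2 fold minimum of 1 the counts were 0, 1 and 2, beside 0.214%, 6.29% and 4.66% of all genes. Counts this small do not tell the lysosomal share from that of all genes. DESeq2 called 13 with ironomycin and 1 for both drugs against ironomycin. With no filter on low counts ironomycin gave 3, and with library totals 2. Library totals moved the medians to 0.3 for ironomycin, 0.265 for both drugs against control, 0.035 for both drugs against ironomycin and 0.324 for both drugs against ibrutinib; the last but one changed sign. Leaving out each line in turn gave counts of 0 to 9 for ironomycin, 0 to 21 for both drugs against control, 0 to 18 for both drugs against ibrutinib and 1 to 16 for the effect by line, and medians of 0.116 to 0.228 for ironomycin and -0.092 to -0.031 for ibrutinib. The number of lysosomal genes with the promoter letters was 9 for the core and 2 for the longest form. Over 41 named genes and comparisons with 451 values under alternatives, 447 kept their direction, 315 also their side of the threshold, 118 lost the call and 14 gained it. The 4 reversals were TFE3 with ironomycin without JEKO1 (-0.031) and without JVM2 (-0.011), and TFEB with both drugs under library totals (0.077) and without JEKO1 (0.073), none of them called. Leaving out the other lines gave TFE3 0.068 at most and TFEB -0.197 at least. Where no cause is given, it was not tested.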

Other observations

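The protease CTSL was left out of the tests for low counts, and its libraries were not alike. MAVER1 with ibrutinib had 23 reads, while the other MAVER1 libraries had 1 in the control, 2 with ironomycin and 0 with both drugs, and the libraries of JEKO1 and JVM2 had 0 to 3. No replicate of that library was made, and the value was chosen after it was seen.

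PSAP took a larger share of the summed lysosomal level in JEKO1 and MAVER1 than in JVM2. The summed level of the 46 genes in MAVER1 was 3618 CPM for control, 4503 for ironomycin, 3467 for ibrutinib and 4810 for the combination, and without PSAP 2751, 3132, 2636 and 3140. In JVM2 the same sums were 3514, 3730, 3470 and 3654 CPM, and without PSAP 3273, 3467, 3260 and 3409. In JEKO1 they were 3457, 3962, 2980 and 3590 CPM, and without PSAP 2451, 2631, 2110 and 2351. The ironomycin library was above the control in each line with and without PSAP, while the both-drug library of JEKO1 was below its control once PSAP was left out.

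SLC26A11, a neighbour that overlaps SGSH in a small part, had 90 reads in the MAVER1 control, 338 under ironomycin, 98 under ibrutinib and 557 under the combination. In JEKO1 it had 25, 97, 22 and 122 reads, and in JVM2 89, 139, 98 and 117.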
